A study of Mus musculus with 3 samples.

Results

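The promoter-heavy nuclei were 1872 nuclei of the mouse forelimb at embryonic day 14.5 (E14.5) in which 62% or more of the open-chromatin counts lay at gene promoters. They were chosen among the 14735 E14.5 nuclei with 5000 or more counts, of which they made up 12.7% (95% exact binomial interval 12.2% to 13.3%), and the E14.5 library held 20023 nuclei of 42365 in the series. A promoter here was an open chromatin region (OCR, a peak called in the library) that overlapped the interval from 1000 bp upstream to 100 bp downstream of an annotated transcription start site, and a nucleus was selected when these OCRs held a share of at least 0.62 of its counts. The 7693 nuclei of the same depth minimum with a share below 0.55 served as comparison nuclei, and 5170 nuclei lay between both limits. Because the promoter share picked the nuclei, the share itself is given only as a description.

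The cells were mesenchymal progenitors (MPs) and their descendants, traced by the transcription factor gene Hic1. Embryos of genotype Hic1CreERT2/CreERT2; Rosa26LSLtdTomato/tdTomato on C57BL/6J, male and female, carried a tamoxifen-dependent Cre in the Hic1 locus and a tdTomato reporter that Cre switches on. Dams were gavaged with 7.5 mg tamoxifen in 300 uL sunflower oil at embryonic day 10. At E14.5 pairs of forelimbs were pooled and dissociated with Collagenase A, Pronase and DNase. tdTomato+ cells without the blood and endothelial antigens CD45, CD117, CD31, CD11b, F4/80 and Ter119 were sorted for single-cell ATAC sequencing (scATAC-Seq), and no epithelial antigen was among those sorted against. All groups compared below came from this 1 library, so the values describe these nuclei, and no test across embryos was possible. The labelled cells were those with Hic1-driven Cre after tamoxifen and their progeny, not every cell of the limb. The E12.5 library of the same genotype and treatment (Dispase digestion) and the E16.5 library (the elbow segment) are used only where named.

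In scATAC-Seq the transposase Tn5 cuts accessible DNA, and each cut inside an OCR is a count. Promoters of widely used genes are open in most cell types and are rich in the dinucleotide CpG, whereas distal elements such as enhancers are open in fewer cell types and carry much of the cell type information. Hic1 encodes a transcriptional repressor. Id1, Id2 and Id3 encode helix-loop-helix proteins without a DNA-binding domain that hold back differentiation and respond to BMP signals.

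Before the results, the library as a whole: the nuclei held from 2132 to 58332 counts, and 89.5% of the entries were even, as 2 cuts per fragment give. Intervals were therefore computed on fragment equivalents (counts halved and rounded up), and they cover counting error only. Of the E14.5 barcodes, 213 also occurred in the E12.5 library and 401 in the E16.5 library, with 23 and 35 of the promoter-heavy nuclei among them. Blood markers were not measurable at promoters, since none of the 6 genes listed (Ptprc, Spi1, Csf1r, Gata1, Itgam, Adgre1) had a promoter OCR at E14.5.

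The promoter share formed a single continuous distribution with a tail to the right, and the promoter-heavy nuclei were its upper end. In steps of 0.02 the tail went down from 681 nuclei at 0.62 to 163 at 0.68 and 87 at 0.70, then held at 94 and 72 before it went down to 28 at 0.76, a shoulder at the shares where the tissue markers described further on differ. The lowest share inside the group was 0.620036 and the highest outside it 0.619988, with 375 nuclei less than 0.01 above the limit and 489 less than 0.01 below. Of the 1872 nuclei, 1128 lay between 0.62 and 0.66, 438 between 0.66 and 0.70, 181 between 0.70 and 0.74 and 125 at 0.74 or more. The standard deviation of the share over the 14735 nuclei was 0.0586, beside 0.00661 for counting error alone. Nuclei ranked alike on separate sets of chromosomes, but the level of the share differed. Its median over the 14735 nuclei was 0.547 on all chromosomes and 0.524 on the even-numbered autosomes. When 2791 nuclei were picked on the odd-numbered autosomes alone, their median share on the even-numbered autosomes was 0.611, beside 0.524 for all nuclei, with 41.3% of them at 0.62 or more and 99.5% at 0.55 or more. Over the 14735 nuclei the shares on both sets of chromosomes had a rank correlation of 0.955, given as a description, since both come from the same nucleus.

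**Figure D1:**
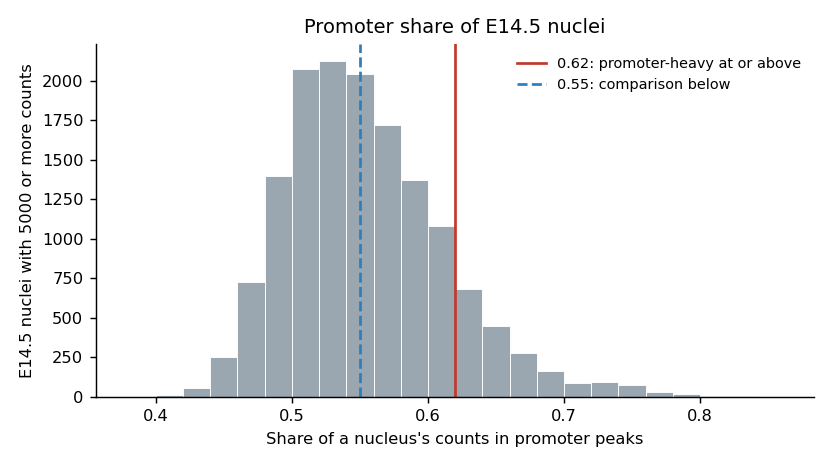
Number of E14.5 nuclei with 5000 or more counts (y axis) by the share of their counts in promoter OCRs (x axis). The solid line marks 0.62, at or above which the 1872 promoter-heavy nuclei lie, and the dashed line 0.55, below which the 7693 comparison nuclei lie; there is no gap at either line.

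Promoter-heavy nuclei were not shallow nuclei. Their median was 11473.5 counts (quartiles 8053 and 16077), and that of the comparison nuclei was 10289 (7305 and 14703), a ratio of 1.12 (1.09 to 1.15). The ranges of both groups overlapped. Within the group the median went from 11622 counts at 0.62 to 0.66 to 10498 at 0.74 or more. The rank correlation of share and depth was 0.155 over the 14735 nuclei and -0.06 within the promoter-heavy nuclei.

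The marker promoters were all open in the promoter-heavy nuclei; Id1 and Id3 were higher than in the comparison nuclei, and Hic1 and Id2 differed little. To keep the promoter share itself out of the comparison, each promoter was measured per 1000000 counts in all promoter OCRs of the same nuclei (promoter CPM). These counts are themselves a part of the share that chose the nuclei, so the ratios are given as a description. Hic1 (chr11:75164871-75171078, 1 OCR of 6208 bp) had 181 promoter CPM in the promoter-heavy nuclei and 166 in the comparison nuclei, a log2 ratio of 0.13 (0.04 to 0.22). Id3 (chr4:136141983-136145794) had 162 and 118, a log2 ratio of 0.46 (0.36 to 0.55). Id1 (chr2:152734385-152740196) had 230 and 174, with 0.40 (0.32 to 0.48), and Id2 (chr12:25094315-25101590) had 280 and 251, with 0.16 (0.09 to 0.23). The median of all 14272 promoters measured was 0.03, and Id1 and Id3 stood above it by more than Hic1 and Id2 did. A promoter was counted as higher or lower from a log2 ratio of 0.32 in either direction; of all 14272, 12.9% were higher and 20.2% lower, and Id1 and Id3 were among the higher. The interval of Hic1 reached below 0 with a threshold of 0.60 (0.07, -0.0016 to 0.15) and with binarised counts (0.07, -0.045 to 0.17).

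Along the share, Id1 and Id3 again differed more than Hic1 and Id2. From nuclei below 0.50 to nuclei at 0.74 or more, the level of Id3 went from 113 (105 to 122) to 227 (190 to 270) promoter CPM and that of Id1 from 165 (155 to 175) to 298 (255 to 346). Hic1 went from 162 (152 to 172) to 190 (156 to 229) and Id2 from 250 (238 to 263) to 270 (229 to 317), whose intervals overlapped. Among single nuclei thinned to 1000 promoter fragments each, a fragment at Id3 was found in 15.3% (13.7% to 17.04%) of the promoter-heavy nuclei and in 10.6% (9.90% to 11.3%) of the comparison nuclei, and at Id1 in 21.6% and 15.8%. For Hic1 the shares were 15.5% (13.9% to 17.3%) and 14.2% (13.5% to 15.05%), and for Id2 22.2% (20.4% to 24.2%) and 21.3% (20.4% to 22.2%), which did not differ beyond counting error. Without thinning, 48.3% and 36.2% of nuclei had a count at Hic1, a comparison that the number of promoter counts per nucleus sets in part.

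**Figure D2:**
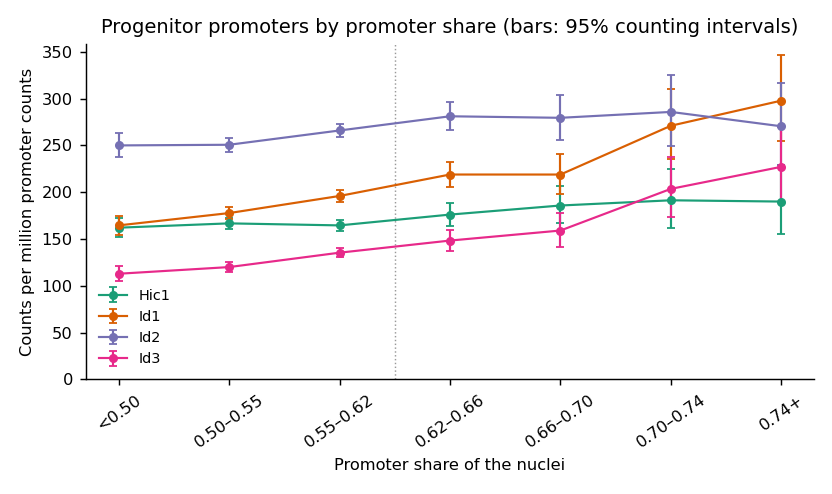
Promoter CPM (y axis) at the promoters of Hic1, Id1, Id2 and Id3 in E14.5 nuclei grouped by promoter share (x axis), with 95% counting intervals; the dotted line marks 0.62. Id1 and Id3 climb to 298 and 227 in the group of highest share, while Hic1 and Id2 stay within overlapping intervals at both ends.

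The promoters themselves differed in base composition, which the sequences show directly. Windows of 300 bases around the start site (250 before, 50 after) are given for Hic1 and Id3, the marker promoters with the smallest and largest ratio, for Hmga1, a chromatin architecture gene among the highest promoters outside the panels, and for Celf2, an RNA-binding protein gene among the lowest. They are RefSeq sequences of GRCm38.p6, written 5′ to 3′ along the strand of the gene, with each CpG in capitals; windows were found for 11 of 14 promoters looked for.
Hic1, chr11:75168103-75168402, minus strand: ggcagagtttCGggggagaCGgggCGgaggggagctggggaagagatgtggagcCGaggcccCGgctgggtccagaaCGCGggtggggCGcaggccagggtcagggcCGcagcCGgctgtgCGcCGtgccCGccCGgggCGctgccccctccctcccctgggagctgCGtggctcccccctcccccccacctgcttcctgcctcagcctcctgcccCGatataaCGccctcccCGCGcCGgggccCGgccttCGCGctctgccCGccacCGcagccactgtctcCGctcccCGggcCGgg
Id3, chr4:136143572-136143871, plus strand: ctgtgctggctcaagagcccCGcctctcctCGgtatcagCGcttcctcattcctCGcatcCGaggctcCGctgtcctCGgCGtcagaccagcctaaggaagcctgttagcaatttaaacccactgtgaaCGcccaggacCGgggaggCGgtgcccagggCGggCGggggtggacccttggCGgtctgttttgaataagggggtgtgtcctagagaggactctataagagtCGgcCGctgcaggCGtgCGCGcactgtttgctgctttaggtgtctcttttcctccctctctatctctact
Hmga1, chr17:27556324-27556623, plus strand: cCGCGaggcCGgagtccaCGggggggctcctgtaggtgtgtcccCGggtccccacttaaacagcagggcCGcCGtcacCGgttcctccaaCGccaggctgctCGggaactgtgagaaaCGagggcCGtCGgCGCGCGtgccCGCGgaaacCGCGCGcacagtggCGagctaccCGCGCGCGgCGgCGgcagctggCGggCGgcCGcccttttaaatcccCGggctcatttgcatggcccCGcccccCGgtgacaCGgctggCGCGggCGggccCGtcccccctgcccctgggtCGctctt
Celf2, chr2:6721613-6721912, minus strand: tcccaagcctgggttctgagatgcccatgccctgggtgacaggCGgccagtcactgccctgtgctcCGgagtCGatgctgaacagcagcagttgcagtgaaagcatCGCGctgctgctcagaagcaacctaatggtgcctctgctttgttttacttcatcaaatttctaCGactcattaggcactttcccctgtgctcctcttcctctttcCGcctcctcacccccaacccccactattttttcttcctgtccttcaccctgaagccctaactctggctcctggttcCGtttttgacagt
These windows held 29 CpGs for Hic1, 19 for Id3, 40 for Hmga1 and 8 for Celf2. Over the 32851 windows of the RefSeq table the median was 7 CpGs, and 26.5% held 20 or more.

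CpG density and the ratio between both groups of nuclei moved together over all promoters, which were ranked by CpGs per 100 bp and divided into 10 equal groups. In the group with the fewest (2.78 or fewer) the median log2 ratio was -0.66, and 71.1% of these promoters were lower in the promoter-heavy nuclei. In the group with the most (7.59 or more) the median was 0.16, with 24.8% higher and 9.32% lower. OCRs outside promoters showed the same order, from -0.47 in the lowest group to 0.27 in the highest, per count outside promoters. Set beside the median of promoters of like CpG density, Hic1 was at -0.0013, while Id1 (0.55), Id3 (0.49) and Id2 (0.15) stayed above 0. The density was taken over the whole OCR. The OCRs of Hic1, Id1, Id2 and Id3 span 6208, 5812, 7276 and 3812 bp, beside a median of 1492 bp for promoter OCRs. Id3 held 3.73 CpGs per 100 bp over its OCR, but 19 in its window of 300 bases. The part of OCR length in these values was not tested. The part of base composition in the other differences was not tested.

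**Figure D3:**
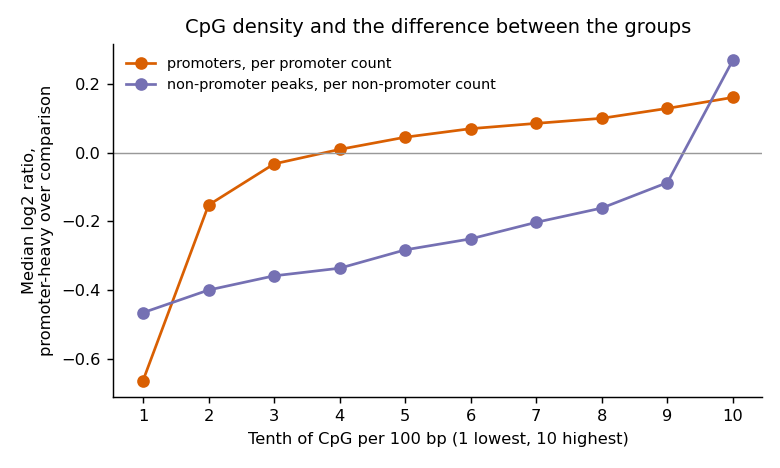
Median log2 ratio of promoter-heavy over comparison nuclei (y axis) for 10 equal groups ranked by CpG per 100 bp (x axis), for promoters per promoter count and for single non-promoter OCRs per non-promoter count. The promoter line runs from -0.66 in the lowest group to 0.16 in the highest, and the line of the other OCRs from -0.47 to 0.27.

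Across the 18 gene panels, of which all but the blood panel had promoters measured, early response promoters were mostly higher in the promoter-heavy nuclei, as were some progenitor, perineural and epithelial ones, and promoters of the fibrogenic and pericyte panels and of regulators of other tissues were mostly lower, as were some cartilage and tendon ones. The counts are read beside the 12.9% and 20.2% of all promoters. Of the 9 MP genes, 4 were higher (Id1, Id3, the mesenchymal repressor gene Snai1 at 0.44 and the chromatin gene Hmga2 at 0.41) and 1 was lower, Osr1, a connective tissue factor gene (-0.40, -0.57 to -0.24). Hic1, Id2, the Wnt effector gene Tcf7l2 (0.18) and the SOX factor gene Sox11 (0.07, -0.02 to 0.16) lay in between. The panel median was 0.18, beside 0.03 for all genes, and 0.15 when each gene was set beside promoters of like CpG density, where Hmga2 (0.31) and Osr1 (-0.25) no longer counted.

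Fibrogenic promoters, those of connective tissue fibroblasts, had the lowest panel median before CpG density was considered. Of 7 measured, 6 were lower: Fap, a cell surface protease gene (31.6 against 92.4 promoter CPM, log2 -1.55, -1.74 to -1.36), Clec3b (-1.52), Postn, a matrix protein gene (-1.07), Mfap5 (-1.07), the surface marker gene Cd34 (-1.06) and the matrix gene Dpt (-0.85). Pdpn was the exception, at 0.08 (-0.09 to 0.24), and Pi16 and Ly6a had no promoter OCR. The panel median was -1.07, and -0.40 beside promoters of like CpG density, where Dpt (-0.19) no longer counted and the developmental regulators of other tissues were at -0.41, and 5 of the 6 lower promoters were in the group with the fewest CpGs. The summed level of the panel went step by step from 265 promoter CPM below a share of 0.50 to 79.5 at 0.74 or more, and that of Fap from 109 to 7.07 (1.93 to 18.1).

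Cartilage promoters divided by gene. Of 9 measured, none was higher and 4 were lower: Sox5 (-0.94, -1.16 to -0.73), Col9a1 (-0.77), the cartilage matrix gene Chad (-0.72) and Cnmd, which encodes chondromodulin (-0.60). The master regulator gene Sox9 (0.09, -0.01 to 0.19) and the cartilage collagen gene Col2a1 (0.05, -0.06 to 0.15) had intervals that included the general level of 0.03, as did Col9a3 (0.18, -0.05 to 0.41) and the aggrecan gene Acan (-0.11, -0.32 to 0.09). Sox6 lay below it by less than the size counted (-0.15, -0.25 to -0.06). Matn1 and Snorc had no promoter OCR. Beside promoters of like CpG density the panel median of -0.15 became -0.00061, Chad stayed lower (-0.77), and Sox5 (-0.28), Col9a1 (-0.10) and Cnmd (0.06) no longer counted.

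Of 8 tendon promoters, 4 were lower: Cilp (-1.84, -2.32 to -1.38), C1qtnf3 (-1.60, -1.92 to -1.28), the small leucine-rich proteoglycan gene Fmod (-0.89) and the tendon homeobox gene Mkx (-0.33). The tendon regulator gene Scx was even between the groups (45.5 against 45.8 promoter CPM, log2 -0.01, -0.18 to 0.16), and Thbs4 (-0.19), Kera (-0.23) and Htra3 (0.23) had intervals that included 0. Tnmd had no promoter OCR. Beside promoters of like CpG density the tendon median of -0.28 became -0.23, and Fmod (-0.22) no longer counted as lower. Dermal fibroblast promoters showed little of this: of 11, Irx1 (0.44) and the Wnt feedback gene Axin2 (0.36) were higher and Nkd2, another Wnt modulator gene, was lower (-0.49), though beside promoters of like CpG density Irx1 (0.31) and Axin2 (0.23) no longer counted. Irx2 (0.25), Rspo1 (0.15), Lrig1 (0.11), Lef1 (0.09), En1 (0.07), Crabp1 (0.01), Col7a1 (-0.03) and Twist2 (-0.14) lay in between, with a panel median of 0.09.

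The limb mesenchyme and position panel had a median of -0.08 over 16 promoters. The distal Hox gene Hoxa13 was higher (0.53, 0.38 to 0.68), and the forelimb identity gene Tbx5 (-0.37) and Shox2 (-0.34) were lower. Beside promoters of like CpG density Tbx5 turned to 0.29, and Shox2 was at -0.31. Pericyte promoters were lower in 5 of 8 (median -0.81), led by Rgs5 (-1.23), while Mcam was higher (0.46). Beside promoters of like CpG density the pericyte median was -0.15, and Cspg4, one of the 5, turned from -0.58 to 0.09. Among 5 endothelial promoters Sox17 (-1.04) and Tek (-1.001) were lower and Erg was at 0.23. Of 3 osteogenic promoters Alpl was higher (0.46) and Sp7 lower (-0.76), the latter at -0.10 beside promoters of like CpG density. Of 3 myogenic promoters Pax7 was lower (-0.40) and Pax3 was at 0.06. In the Schwann panel of 4 the median was 0.18, and Sox10 was at -0.07 (-0.47 to 0.31). In the perineural panel of 4, the integrin gene Itgb4 (0.56) and the ligand gene Wnt6 (0.51) were higher and Cldn1 was lower (-0.93). Of 12 developmental regulators of other tissues, 7 were lower, to -0.50 at Gata4, and 2 were higher, Sox1 (0.44) and Neurog1 (0.44), of which neither counted beside promoters of like CpG density (0.28 for both).

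Promoters of genes used by all cells and of dividing cells stood a little above the general level. The housekeeping panel had a median of 0.21, with the actin gene Actb (0.60) and Ppia (0.40) among the higher, none of 12 lower and B2m the lowest (-0.21, -0.35 to -0.08). The cell cycle panel also had a median of 0.21, with 3 of 18 higher (Mki67 at 0.54, the cyclin-dependent kinase inhibitor gene Cdkn1a at 0.46 and the cyclin gene Ccne1 at 0.45, or 0.29 beside promoters of like CpG density) and the replication gene Mcm5 lowest (-0.12, -0.25 to 0.01). The MP median of 0.18 was thus no higher than that of the housekeeping panel.

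Promoters of AP-1 and other early response genes, which react within minutes to growth factors and to stress, were mostly higher. Of 18, 12 were higher and none lower, with a median of 0.40, or 0.30 beside promoters of like CpG density. The nuclear receptor gene Nr4a1 had 220 and 137 promoter CPM (0.68, 0.60 to 0.77), Fosl1 was at 0.66 and Jund at 0.57, and Klf6 was the lowest (-0.17, -0.27 to -0.07). The summed level of the panel went from 2675 promoter CPM in nuclei below 0.50 to 4343 in nuclei at 0.74 or more.

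**Figure D4:**
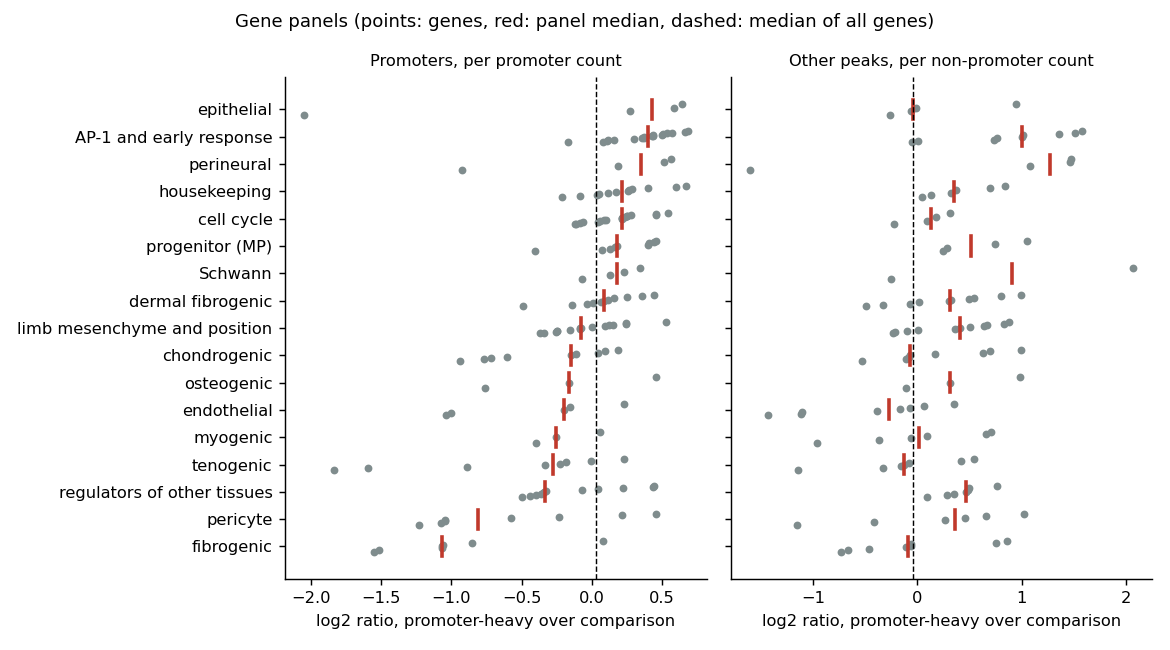
Log2 ratio of promoter-heavy over comparison nuclei (x axis) for the genes of each panel (rows), left at promoters per promoter count and right at the other OCRs of each gene per non-promoter count. Points are genes, red marks the panel medians and dashed lines the medians of all genes (0.03 and -0.05); the fibrogenic panel lies lowest at promoters (-1.07) and at the general level elsewhere (-0.09).

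Outside the panels, the 5 highest promoters among those with at least median counts held from 5.35 (Rasgrp2) to 8.50 (Hmga1) CpGs per 100 bp. They were Camk2n1, an inhibitor gene of a calcium-dependent kinase (chr4:138452889-138456381, 123 against 65.3 promoter CPM, log2 0.91, 0.79 to 1.03), Hmga1 (0.85), the cytokine receptor gene Csf2ra (0.82), Marcksl1 (0.81) and Rasgrp2 (0.74). The 5 lowest were Tm4sf1, a membrane protein gene (chr3:57293571-57295886, 43.4 against 109, log2 -1.32, -1.49 to -1.16), Pkia (-1.19), Celf2 (-1.12), Lingo2 (-1.12) and the amino acid transaminase gene Bcat1 (-1.11). The sequence windows of Hmga1 and Celf2 above show the contrast in CpGs, but Lingo2 and Bcat1, with 4.64 and 4.23 CpGs per 100 bp, were lower than promoters of like density by log2 values of -1.13 and -1.12.

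In the counts outside promoters, the fibrogenic, cartilage and tendon panels had medians of -0.09, -0.07 and -0.13, beside a general level of -0.05. Counts were measured for each gene over the non-promoter OCRs of its body and the 2000 bp upstream, per 1000000 counts outside promoters (non-promoter CPM); of 9088 genes, 29.6% were higher and 32.1% lower from a log2 ratio of 0.32. All 4 MP genes with such OCRs had intervals above 0: Sox11 (1.05), Osr1 (0.75, 0.55 to 0.94), Hmga2 (0.29) and Tcf7l2 (0.24), of which 2 counted as higher. Those 2, Sox11 and Osr1, had 1 such OCR each, while Hmga2 had 19 and Tcf7l2 31. The promoter of Osr1 had been lower (-0.40), but it was at -0.25 beside promoters of like CpG density and did not count as lower without the 306 nuclei with a share of 0.70 or more. Hic1, Id1, Id2, Id3 and Snai1 had no OCR of this kind. The panel median was 0.52.

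At fibrogenic genes the median outside promoters was -0.09 over 8 genes, with Fap (-0.67, -0.92 to -0.43), Dpt (-0.73) and Mfap5 (-0.47) lower, Clec3b (0.86) and Pi16 (0.75) higher, and Pdpn (-0.11), Postn (-0.06) and Cd34 (-0.06) between. Of the 9 cartilage genes, Col2a1 (0.99), Col9a3 (0.69) and Matn1 (0.63) were higher and Sox6, whose 29 OCRs span a long gene, was lower (-0.53). Acan (0.17), Cnmd (-0.07), Col9a1 (-0.08), Sox5 (-0.09) and Snorc (-0.11) lay between. Of the 7 tendon genes, Fmod (0.54) and Cilp (0.41) were higher and Kera (-1.15) and C1qtnf3 (-0.33) lower, with Htra3 (-0.08), Thbs4 (-0.13) and Mkx (-0.16) between. Of the 10 dermal genes, Irx2 (0.99), Axin2 (0.80), Rspo1 (0.54) and Lef1 (0.50) were higher and Crabp1 (-0.49) and Nkd2 (-0.33) lower, with En1 (0.32), Irx1 (0.30), Twist2 (0.01) and Lrig1 (-0.07) between. The intervals of C1qtnf3, Cilp, Rspo1 and Crabp1 included 0.

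Of the early response genes, 7 of 9 were higher and none lower, with a median of 1.001. Jund was at 1.58, Fosb at 1.51, and Dusp1 (-0.05) and Klf6 (0.00) stayed at the general level. The limb panel had 7 of 11 higher and a median of 0.41, from Msx1 (0.87) to Meis1 (-0.24). Medians of other panels were 1.27 for the perineural genes, with Itgb4 at 1.47 and Cldn1 at -1.61, 0.46 for the regulators of other tissues, 0.36 for the pericyte genes, 0.35 for the housekeeping genes, 0.31 for the osteogenic genes, 0.13 for the cell cycle genes, 0.02 for the myogenic genes, -0.04 for the epithelial genes, -0.22 for the blood genes (Spi1 at 0.48, Ptprc at -0.91) and -0.28 for the endothelial genes.

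Single OCRs outside promoters told where these counts lay. Of 78354 measured, 22.3% were higher and 45.5% lower from the same log2 ratio, with a median of -0.24. OCRs within 5000 bp of a start site had a median of 0.01, those at 5000 to 50000 bp -0.23 and those farther away -0.43, so the far OCRs were the lower ones. They held 15.8% of the non-promoter counts of the promoter-heavy nuclei and 18.7% of those of the comparison nuclei. OCRs in exons (median 0.04) stood above those in introns (-0.27) and between genes (-0.26).

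The central 300 bp of 66849 non-promoter OCRs were searched for short motifs on both strands. The 14-position consensus of CTCF, the factor at chromatin loop anchors, was found in 8.15% of the 15284 higher OCRs, in 1.21% of the 29250 lower OCRs and in 4.19% of all. Among OCRs of 44 to 50 percent GC the shares were 9.67%, 1.16% and 4.11%, in the same order. OCRs were not matched for CpG density or distance to a start site. GGGCGG, the box bound by SP and KLF factors, was in 18.5% of the higher, 4.98% of the lower and 9.33% of all OCRs, and 10.7%, 5.06% and 6.70% at that GC content. The AP-1 sites TGACTCA and TGAGTCA (each the reverse complement of the other) went the other way, with 6.43% of the higher, 10.2% of the lower and 8.33% of all OCRs. A motif match is a description and not a bound site. An OCR with the CTCF consensus, chosen after its values were seen, is shown as an example, with the consensus in capitals; it lies in an OCR that overlaps an exon of A930004D18Rik (chr2:18025699-18029329) and was 1.83-fold higher in the promoter-heavy nuclei, with 291 against 159 non-promoter CPM.
CTCF consensus, chr2:18027518-18027581, plus strand: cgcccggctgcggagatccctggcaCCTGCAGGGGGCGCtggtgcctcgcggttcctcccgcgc

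The 5 non-promoter OCRs with the highest ratios, among those above the 90th percentile of counts, had larger ratios than the genes above. They were not compared with the ribosomal repeat beyond its 18S copy, and 4 of the 5 shared blocks of 50 bp or more at 90% identity or more with other OCRs (9 for that on chromosome 13, 1 on chromosome 11, 184 on chromosome 17 and 2 on chromosome 16), so reads could belong elsewhere and the genes named give the position only. They were chr13:9011491-9012367 (10.3-fold), chr5:146260790-146261560 in an intron of the kinase gene Cdk8 (9.84-fold), chr11:109011434-109013197 (9.72-fold), chr17:36231055-36231812 (8.94-fold) and chr16:57389931-57391891 in introns of Cmss1 and Filip1l (8.44-fold). Together they held 161 non-promoter CPM in nuclei below 0.50 and 6134 (5774 to 6510) in nuclei at 0.74 or more. The lowest 5, in the same way, were 3.09-fold to 4.30-fold lower, among them introns of Arnt2 (chr7:84292879-84293996), Tmem167 (chr13:90131382-90132401) and Maml3 (chr3:51943484-51944425), and together they went from 221 to 2.83 (0.07 to 15.8).

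Counts at ribosomal RNA sequence also went up with the promoter share. The annotation places a copy of the 18S ribosomal RNA gene at chr17:39846353-39848827, and the OCR over it (chr17:39842784-39849048, chosen after its values were seen) counted as a promoter through the start sites of the non-coding transcripts annotated there. It held 7486 promoter CPM in the promoter-heavy nuclei and 1490 in the comparison nuclei, 5.02-fold more, and went from 1010 below a share of 0.50 to 11699 at 0.70 to 0.74 and 10838 at 0.74 or more. A second OCR with 18S sequence, which was no promoter (chr6:3201125-3201746), was 9.71-fold higher, with 101 against 10.4 non-promoter CPM. Over 546 bp it matched the 18S copy at 97.4% identity, and the end of the match is shown with the matched bases in capitals.
18S match, chr6:3201531-3201730, plus strand: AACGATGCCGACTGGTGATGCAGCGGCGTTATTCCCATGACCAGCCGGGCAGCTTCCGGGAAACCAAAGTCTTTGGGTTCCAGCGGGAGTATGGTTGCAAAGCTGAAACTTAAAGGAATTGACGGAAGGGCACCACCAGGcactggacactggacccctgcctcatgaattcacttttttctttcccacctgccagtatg
An OCR with mitochondrial sequence (chr1:24612468-24613118) was 2.29-fold higher. With the chromosome 17 OCR left out of the rule, 1813 nuclei had a share of 0.62 or more; as the OCR counts as a promoter, leaving it out can only lower a share. Without that OCR the depth ratio was 1.12 and the log2 ratio of Hic1 0.14 (0.06 to 0.23). The part of the ribosomal counts at other OCRs, and in the other results, was not tested.

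The fragments fell on slightly fewer different OCRs. Each nucleus was thinned to 600 fragments outside promoters, which left out 2 promoter-heavy nuclei, and then touched a median of 584 different OCRs in the promoter-heavy nuclei and 591 in the comparison nuclei, and 575 at a share of 0.74 or more. At 1000 promoter fragments the medians were 940 and 950. These medians lie close to the 600 and 1000 fragments drawn and are lowered by any OCR that takes many fragments, so they do not count open places alone. The chromosome 17 OCR over the 18S copy counts as a promoter, so it is not among the 600 fragments outside promoters. The part of single OCRs in these medians was not tested. Unthinned, the promoter-heavy nuclei reached 1898 non-promoter OCRs and 3108 promoters, and the comparison nuclei 2560 and 2331. These numbers follow in part from the promoter share that chose the nuclei.

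The heaviest nuclei, the 306 with a share of 0.70 or more, differed from the rest of the group at tissue markers. The promoters of the epithelial genes Epcam, an adhesion molecule gene, Esrp1, a splicing regulator gene, and Cdh1, the E-cadherin gene, were even up to a share of 0.66. At 0.66 to 0.70 Epcam (52.4, 42.8 to 63.6 promoter CPM) and Esrp1 (50.8, 41.3 to 61.9) had intervals that still met some of those at lower shares. Epcam and Esrp1 stood above all groups below 0.66 beyond counting error from 0.70 on, and Cdh1 from 0.74 on. Epcam held 33.7 promoter CPM below 0.50, 38.4 at 0.62 to 0.66 and 128 (101 to 161) at 0.74 or more, Esrp1 32.7, 35.01 and 147 (117 to 182), and Cdh1 19.8, 22.4 and 68.9 (49.5 to 93.5). The sum of the epithelial panel was 98.4, 99.2 and 345 (299 to 396). Not all of the panel took part: Krt5 and Krt14 had no promoter OCR, and Trp63 was lower in the whole group (2.40 against 9.92, log2 -2.05). For the group as a whole the epithelial panel median was 0.43, and it was 0.09 without the 306 nuclei, with 1 promoter higher and 1 lower in place of 2 and 1.

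Some limb mesenchyme markers went the other way in the same nuclei. Prrx1, a homeobox gene of limb mesenchyme, had 121 promoter CPM at 0.62 to 0.66 and 48.6 (32.3 to 70.3) at 0.74 or more, and Twist1 138 and 77.8 (56.5 to 104). The limb promoters summed to 1659 and 1214 (1126 to 1308), but outside promoters the panel stayed level, at 920 (886 to 956) and 939 (805 to 1089) non-promoter CPM. Between the 306 nuclei and those at 0.62 to 0.66, the patterning gene Meis2 was higher at its promoter (log2 0.54, 0.31 to 0.76), and outside promoters Meis2 (0.97), Meis1 (0.93) and Shox2 (0.85) were higher while Tbx5 (-0.75, -1.18 to -0.34), Prrx1 (-0.55, -1.09 to -0.04) and Prrx2 (-0.42, -0.78 to -0.08) were lower. The lowest limb promoters in that comparison were Tbx5 (-1.09), Prrx1 (-1.07) and Hoxa10 (-0.79). Hic1 did not follow it, with 176 and 190, and Id1 and Id3 had their highest levels there. With the 306 nuclei left out, Id1 was at 0.33, Id3 at 0.36, the MP median at 0.19 with 4 of 9 higher and 0 lower, and the fibrogenic median at -1.04 with 6 of 7 lower. The early response panel then had 10 of 18 higher, the limb panel 2 higher and 0 lower, so that Tbx5 and Shox2 no longer counted as lower, and Pax7 no longer counted either.

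Comparing the 306 nuclei directly with those at 0.62 to 0.66 gave genes that were chosen by their ratio and carry no test. Of 13507 promoters, 120 were 2-fold or more higher and 390 as much lower, around a median of -0.01. The 15 highest were led by Ttll10 (2.84), Art4 (2.71) and Cdcp1 (2.40) and included Sfn (2.33), Dsg2 (2.31), Evpl (2.26), Cldn4 (1.99) and Dsc3 (1.83), of which Dsg2 and Dsc3 encode desmosome proteins, Evpl a protein of the cornified envelope and Cldn4 one of tight junctions. The other 7 were Acpp, Cnksr1, AI661453, 1700001C19Rik, Noxa1, S100a3 and S100a16, from 1.86 to 2.28. Genes were measured from 50 fragment equivalents in both groups together, and the 306 nuclei were the smaller group. At 0.62 to 0.66 Art4 had 19 fragments, Cdcp1 23, Dsc3 27, Ttll10 32 and, outside promoters, Esrp2 17. Genes this sparse there passed the minimum only when high in the heaviest nuclei. The minimum thus made part of the highest lists and of the counts of higher genes. Dsg2 (52) and Cldn4 (53) reached it without the heaviest nuclei. Outside promoters the 3 highest were Esrp2, a splicing regulator gene of epithelia (3.94, 3.10 to 4.85), Hjurp, a centromere gene (3.10), and Cic, a repressor gene (2.65), and the desmosome gene Dsp was the last of the 15 (2.32); of 5583 genes there, 464 were 2-fold or more higher and 386 as much lower, down to Hmgn3 (-4.27), Med9 (-4.06) and Lypd6 (-3.80) on 1 to 3 fragments. The 15 lowest promoters included Fam180a (-3.52), Aoc3 (-2.84), Il6 (-2.80), the protease gene Ctsk (-2.54) and the small leucine-rich proteoglycan genes Omd (-2.53) and Aspn (-2.43), on 2 to 6 fragments each in the heaviest nuclei.

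Per nucleus the epithelial signal was sparse. Every nucleus was thinned to 2500 fragments, and those at any OCR of the epithelial panel genes, promoter or other, were counted. Of 1872 promoter-heavy nuclei, 15 (0.801%, 0.449% to 1.32%) had 3 or more such fragments. Of 7693 comparison nuclei, 31 (0.403%, 0.274% to 0.571%) had as many. Among the 15, 12 had a share of 0.70 or more. Promoter OCRs were among those counted, so the promoter share that chose the nuclei enters these numbers, which are given as a description. The mean was 0.287 such fragments per promoter-heavy nucleus and 0.255 per comparison nucleus. In the 15, the limb promoter Prrx1 held 28.7 (3.47 to 104) promoter CPM on 2 fragments and Twist1 14.3 (0.36 to 79.9) on 1. In the 31 they held 168 (94.2 to 278) and 202 (120 to 319). The promoters of the whole limb panel summed to 990 (772 to 1250) in the 15 and 1801.5 (1536 to 2100) in the 31. Outside promoters the limb panel was not lower in the 15, at 1138 (768 to 1624) non-promoter CPM beside 715 (552 to 911), with overlapping intervals. The remaining 294 of the 306 heaviest nuclei still had 235 (210 to 263) promoter CPM at the epithelial panel. The comparison nuclei with fewer than 3 epithelial fragments had 97.4. At Prrx1 the 294 had 59.6 (47.1 to 74.5). Their limb promoters summed to 1269 (1208 to 1332), beside 1696 (1679 to 1712) in those comparison nuclei. Outside promoters the limb panel was at 928 (845 to 1017) non-promoter CPM in the 294 and at 764 (752 to 775) in those comparison nuclei.

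**Figure D5:**
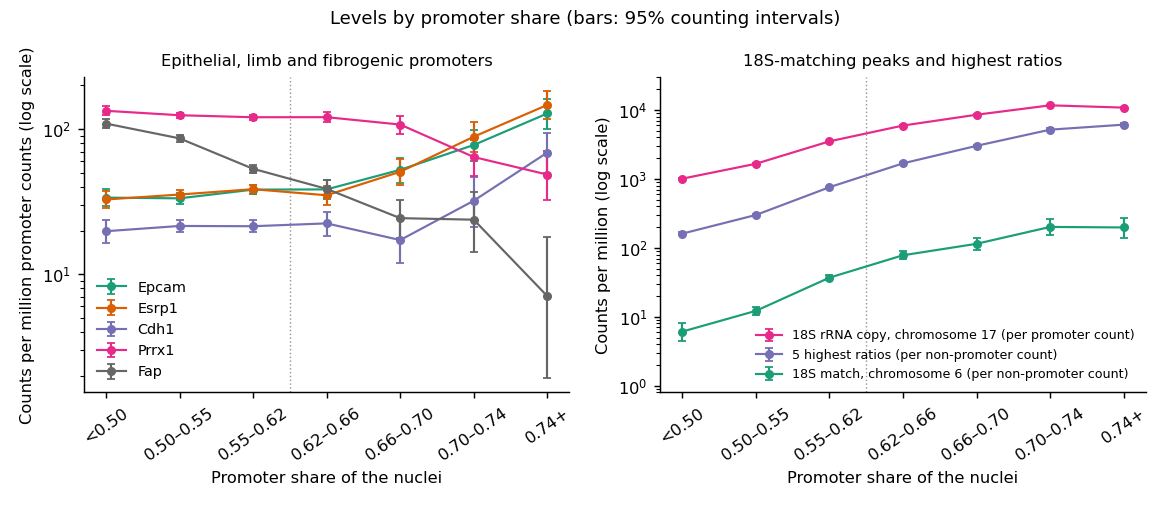
Promoter CPM on the left and, for the non-promoter OCRs on the right, non-promoter CPM (y axes, log scale) in E14.5 nuclei grouped by promoter share (x axes), with 95% counting intervals and a dotted line at 0.62. On the left, the Epcam, Esrp1 and Cdh1 promoters are level up to 0.66 and reach 128, 147 and 68.9 at 0.74 or more, while Prrx1 ends at 48.6 and Fap at 7.07; on the right, the OCR over the 18S copy goes from 1010 to 10838, and the 5 non-promoter OCRs of highest ratio and the chromosome 6 OCR with 18S sequence climb over the same steps.

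Promoter-heavy nuclei were found among all clusters of the library. Clusters were made from non-promoter OCRs away from the panel genes, on 14733 nuclei thinned to 600 fragments, and are called by number. The promoter-heavy nuclei were 719 of 4112 nuclei in cluster 1 (17.5%, 16.3% to 18.7%), 285 of 4102 in cluster 2 (6.95%), 259 of 2422 in cluster 3 (10.7%), 328 of 2397 in cluster 4 (13.7%) and 279 of 1700 in cluster 5 (16.4%). Cluster 1 held 185 of the nuclei at 0.70 or more and 13 of the 15 with epithelial fragments. Cluster 3 was highest in the cartilage panel (1.76 times the median cluster) and cluster 5 in the dermal panel (1.47 times). The clusters used OCRs that differ between the groups, so their sizes are not compared further. With the comparison nuclei weighted to the same cluster makeup, the log2 ratio of Hic1 was 0.11 and the MP median 0.17.

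The same rule found fewer nuclei in the other libraries. It met 25 of 4638 nuclei at E12.5 (0.539%, 0.349% to 0.795%) and 206 of 13113 at E16.5 (1.57%, 1.37% to 1.80%). These shares rest on OCRs called in each library alone, and promoters were 17.3% of the OCRs at E14.5, 11.03% at E12.5 and 10.3% at E16.5. Over regions that all 3 libraries share, the rule met 102, 3653 and 550 nuclei (2.20%, 24.8% and 4.19%), so the order was the same and the gap smaller in proportion to E12.5 and E16.5. Stage, tissue segment and library cannot be told apart, nor, for E12.5, digestion; E14.5 and E16.5 forelimbs were digested with the same enzymes.

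In the other libraries the nuclei that met the rule can be set beside those below 0.55 in the same way, as values from other nuclei than the ones the group was described on. At E16.5 the log2 ratios were 0.92 for Id3 (0.80 to 1.04), 0.77 for Id1 and 0.56 for Hic1 (0.41 to 0.71), with 0.46 for the MP sum. The summed fibrogenic promoters were at -1.03, the cartilage promoters at -0.64 (-0.79 to -0.50) and the early response promoters at 0.55. The epithelial promoters were at 0.70, with Epcam at 1.09 (0.69 to 1.46) and Esrp1 at 0.27 (-0.09 to 0.60). Prrx1 was at -0.63, but the limb promoters together were at -0.10 (-0.16 to -0.03). At E12.5, with 25 nuclei, the fibrogenic promoters were at -1.26 (-2.17 to -0.48). Prrx1 was at -0.85 (-1.76 to -0.07), the limb promoters together at -0.31 (-0.48 to -0.14) and the early response promoters at 0.13 (0.0037 to 0.25). Hic1 (0.08, -0.34 to 0.47), Id1 (0.13, -0.22 to 0.46) and Id3 (0.27, -0.03 to 0.56) had intervals that included 0. So had the MP sum (-0.06, -0.20 to 0.08), the cartilage promoters (-0.16, -0.44 to 0.11) and the epithelial panel (-0.02, -0.78 to 0.64). At E14.5 the same sums gave -0.89 for the fibrogenic, -0.14 for the cartilage, -0.09 for the limb, 0.33 for the early response and 0.41 for the epithelial promoters. These intervals hold no error between libraries, so no difference between stages is drawn from them.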

How the data were processed

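Nuclei of tdTomato+ forelimb cells had been profiled by the authors with scATAC-Seq, 1 library per stage (E12.5, E14.5, E16.5). The authors deposited unnormalised counts of Tn5 cut sites for each peak and nucleus, on peaks that belong to 1 library each. Reads had been aligned to mm10 by Cell Ranger ATAC, version 1.1.0 per the submitters' processing notes, 1.0.1 (E12.5, E14.5) and 1.2.0 (E16.5) per the file headers. Of the deposited barcodes, those with 5000 or more counts were used; no doublet caller was run, and the deepest 5% were left out as an alternative.

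Start sites came from the GENCODE basic set on GRCm38. Ratios are of sums over nuclei, per count in promoter OCRs (promoters) or in all other OCRs (other sites), for genes with 50 or more fragment equivalents in both groups together. Intervals are exact at 95%, binomial for shares and conditional on the sum for ratios, order statistics for medians over nuclei, and Poisson for levels. E14.5 nuclei held a median of 8575 counts. With 1 library per stage there is no replicate error, and no test or p-value was computed. Named genes were the panel genes (all of the MP, cartilage, tendon, fibrogenic and dermal panels, the extremes of the others) and, outside the panels, the 5 highest and 5 lowest promoters and single peaks. The nuclei, panels and rules were chosen with earlier results of these data known. Clusters were k-means, 5 clusters, on latent semantic indexing (scikit-learn 1.9.0). Sequence matches used blastn 2.17.0 with at least 50 bp and 90% identity. Alternatives were thresholds of 0.60 and 0.65, all nuclei below 0.62 as comparison, a depth window, a 500 bp promoter window, binarised counts, cluster weighting and those named in the closing section. The ratio and thinning code was tested on simulated data. Some panel genes are not reported here.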

Additional observations from a re-analysis of the deposited data

How the results depend on the processing

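Of 62 values recomputed under 11 alternatives (8 listed with the design, and 3 added after seeing the data: without the 306 nuclei at 0.70 or more, without the chromosome 17 ribosomal OCR, and relative to CpG density), 55 stayed within 1.5 times for counts or within the counting interval for the rest. A threshold of 0.60 gave 2952 nuclei and of 0.65 gave 933, beside 1872. The depth ratio of 1.12 was 1.07 at 0.65 and 1.05 with all nuclei below 0.62 as comparison. The difference in distinct non-promoter OCRs of -7 was -5 at 0.60 and -9 at 0.65. The log2 ratio of Hic1 of 0.13 was -0.0013 (-0.090 to 0.086) beside promoters of like CpG density, so its sign is not set. It was 0.07 at a threshold of 0.60 and 0.07 with binarised counts, where its intervals reached below 0. The MP median of 0.18 stayed between 0.15 and 0.20, and the promoters counted as higher or lower, 4723 (1838 and 2885), between 3469 and 5566; the 3469, with all nuclei below 0.62 as comparison, divided into 923 and 2546. No paired analysis was possible because each stage is 1 library and the groups are nuclei of the same library. At single promoters the number of fragments limits precision: the 125 nuclei at 0.74 or more held 4 fragments at Fap.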
